A study of Mus musculus with 4 samples.

Results

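The genes of prostanoid synthesis and reception were examined in dendritic cells grown from bone marrow of mice with a cre directed at floxed Rbpj or without it. Rbpj encodes the transcription factor that carries Notch signals to DNA. The list held 10 genes among the 17974 genes tested, and all 10 were named by matching the probe accessions to RefSeq: the cyclooxygenases Ptgs1 and Ptgs2, the terminal synthases Ptgis, Tbxas1, Ptges, Ptgds and Hpgds, the receptors Ptger2 and Ptger4, and the inactivating enzyme Hpgd. They were chosen by their measured differences between these same arrays, with Ptgis set against the rest, so their values are a description and carry no test. The Rbpj-deficient cells (RFF11) carried loxP-flanked Rbpj alleles and a CD11c-cre, a recombinase driven by the promoter of Itgax, and the control cells (RFF) carried Rbpj fl/fl alleles without the cre. All were CD11c+ cells from marrow of female C57BL/6 mice aged 8 weeks, grown for 6 days in GM-CSF at 20 ng/mL. Each genotype had 2 one-colour arrays, with RNA pooled from 4 mice per genotype; nothing says that the pools were separate, so p-values measure only a spread between arrays that may be technical. No array held cre-expressing cells with intact Rbpj, so cre and loss of Rbpj cannot be told apart.

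Prostanoids are short-lived lipid signals made from arachidonic acid. A cyclooxygenase turns it into prostaglandin H2, and a terminal synthase makes from this one end product: prostacyclin, thromboxane A2, prostaglandin E2 or prostaglandin D2, each with its own receptors. In dendritic cells prostaglandin E2 is known to act on maturation, migration and cytokine output through the cAMP-coupled receptors encoded by Ptger2 and Ptger4.

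In Rbpj-deficient cells the prostacyclin synthase gene Ptgis read 3.71-fold above control and the haematopoietic prostaglandin D2 synthase gene Hpgds 2.61-fold above it. The thromboxane synthase gene Tbxas1 read 1.48-fold below control, and the prostaglandin E2 synthase gene Ptges differed by 0.01 on the log2 scale. Both cyclooxygenase genes read higher, and the prostaglandin E2 receptor genes Ptger2 and Ptger4 lower. Among 33 other genes of the pathway that could be tested, Ltc4s and a further prostaglandin E2 receptor gene, Ptger3, rose and Pla2g4d fell.

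Levels are log2 signal minus the 75th percentile of the same array. Levels of a gene were compared only within a probe, since probes differ in brightness. Summed signals of marker lists add the brightest probe of each gene on the linear scale, so the brightest genes weigh most in them. Of 43020 spots for genes on each array, 57.7% to 58.4% were well above background on Rbpj-deficient arrays and 55.2% to 58.1% on control arrays, and none was saturated. Levels correlated across genes at 0.998 within the Rbpj-deficient and 0.997 within the control arrays, against 0.993 to 0.994 between genotypes. Rbpj, the deleted gene, read 1.36 and 1.43 on Rbpj-deficient arrays, against 2.69 and 2.60 on control arrays, so that it fell by 1.25 in log2 units (SE 0.07; adjusted p = 0.0282 by limma) and 42.1% of the control signal was left. That call ended when any 1 of the 4 arrays was left out, but hardly any gene on the array was then called. The log2 difference of Rbpj then lay between -1.29 and -1.21. Itgax itself read 6.65 and 6.45 in Rbpj-deficient cells, against 6.69 and 6.62 in control cells. All 9 dendritic cell markers found on the array were well above background on all 4 arrays and none was called, with summed signals of 777 and 732 on Rbpj-deficient arrays, against 814 and 783 on control arrays, in units of the array's 75th percentile. As these are bulk samples, fewer cells of a type and less RNA per cell cannot be told apart.

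Of the 10 members, 8 were well above background on all 4 arrays. Ptgs2 and Hpgd were so on both Rbpj-deficient arrays and on 1 of 2 control arrays, and passed the filter on dim probes, which asked for both arrays of at least 1 genotype, through the Rbpj-deficient arrays. The Rbpj-deficient arrays lay wholly above the control arrays for 5 members and wholly below for 3. Over all genes tested these shares were 26.7% and 32.3%. In the limma fit across all genes, with a threshold of 0.05 on the Benjamini-Hochberg adjusted p, 1 member was called higher (Hpgds) and 1 lower (Tbxas1), where 1.05% and 0.851% of all genes were called. Since the members were chosen on this contrast, nothing is read from these counts. The median log2 difference of the 10 members was 0.25, against -0.01 over all genes tested.

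**Figure D1:**
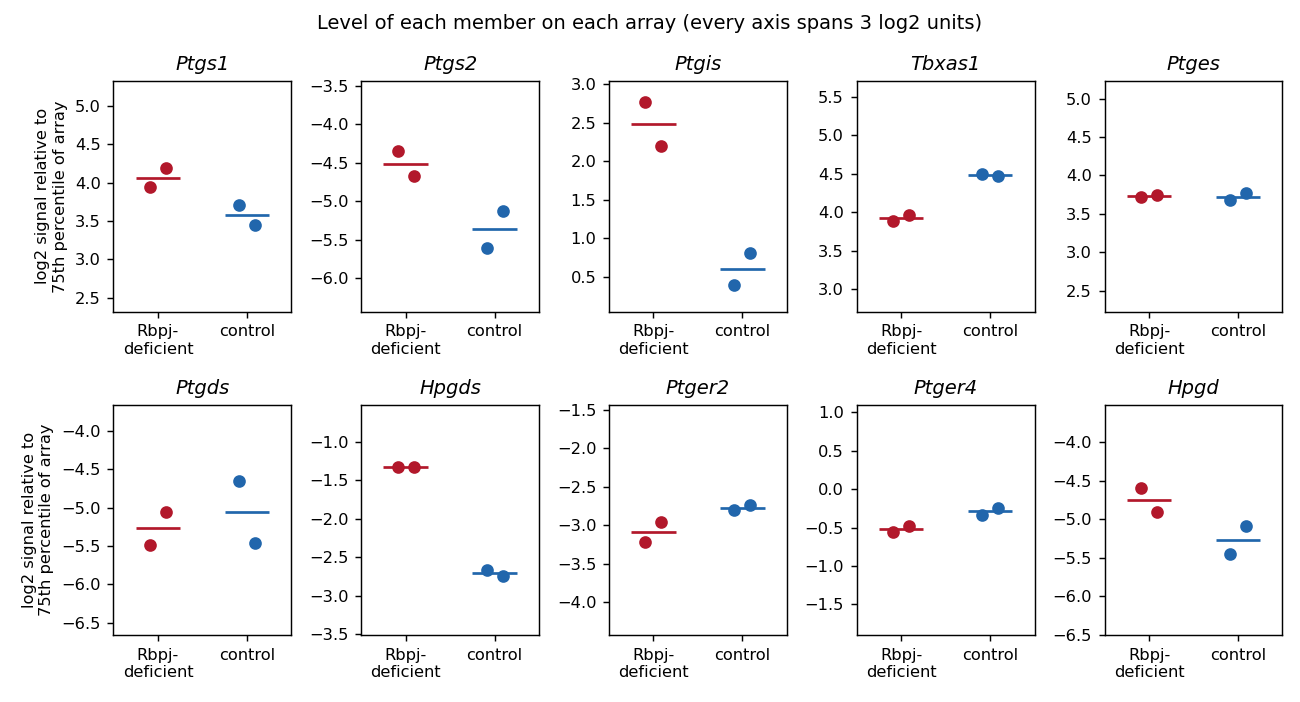
Level of each of the 10 members on each array, in log2 units above or below the array's 75th percentile, with Rbpj-deficient arrays left and control arrays right; points are arrays and bars are means of 2. Every axis spans the same length, so that the gap of 1.89 for Ptgis and of 1.39 for Hpgds can be set beside the gap of 0.01 for Ptges.

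Ptgs1 encodes the cyclooxygenase that most tissues express without stimulation. It read 3.94 and 4.18 on Rbpj-deficient arrays, against 3.71 and 3.45 on control arrays. The groups did not overlap, and the log2 difference was 0.48 (SE 0.14), or 1.40-fold, with the 4 pairs of 1 Rbpj-deficient and 1 control array ranging from 0.23 to 0.74. Megakaryocytes and platelets also express Ptgs1. Of 7 platelet and megakaryocyte markers 6 were tested, none was called and 4 read above 0, and their summed signal was 11.6 and 15.3 on Rbpj-deficient arrays, against 9.71 and 9.67 on control arrays. Pf4 had the brightest probe of the list and weighed most in that sum. Its log2 level was 3.46 and 3.88 on Rbpj-deficient arrays, against 3.20 on both control arrays. Gp5 was below background throughout. The part of platelets and megakaryocytes in the Ptgs1 difference was not tested.

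Ptgs2 encodes the cyclooxygenase that inflammatory stimuli induce. Its probe was printed as 10 spots per array, of which 10 and 8 were kept on Rbpj-deficient arrays and 9 and 10 on control arrays after outlier spots were left out. The spot means were -4.34 and -4.67 on Rbpj-deficient arrays, against -5.60 and -5.12 on control arrays, with SDs over spots of 0.09 to 0.20. All kept spots were well above background on both Rbpj-deficient arrays and on control replicate 2, and 0 of 9 were on control replicate 1. The log2 difference was 0.86 (SE 0.21), or 1.81-fold, and the array pairs ranged from 0.45 to 1.26. The 2 control arrays stood farther apart (SD 0.34, n = 2) than the spots within either array. With another background correction, normexp, the difference was 0.31.

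Ptgis encodes prostacyclin synthase, a cytochrome P450 enzyme best known from vascular endothelium. It read 2.77 and 2.20 on Rbpj-deficient arrays, against 0.38 and 0.81 on control arrays, all 4 well above background. The groups were far apart, with means of 2.49 ± 0.41 in Rbpj-deficient cells and 0.60 ± 0.30 in control cells (SD, n = 2 each). The log2 difference of 1.89 (SE 0.26) was rank 37 from the highest among 17974 genes. The array pairs spread from 1.39 to 2.39. Ptgis was not called in the fit across all genes, which is no test of a member chosen on this contrast.

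The difference of Ptgis exceeded that of every other member on the means. It lay 2.45 above that of Tbxas1 on the log2 scale, 2.10 above that of Ptgds, 1.88 above that of Ptges and 1.41 above that of Ptgs1. Against Ptger2 and Ptger4 the gaps were 2.21 and 2.12, against Hpgd 1.37 and against Ptgs2 1.04. Against Hpgds it was 0.51, with array pairs ranging from -0.03 to 1.04. Ptgis was set against the rest when the list was chosen, so these gaps are a description only.

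Stromal and endothelial cells are a known source of Ptgis. Of 10 stromal and endothelial markers on the array, 5 were tested and none was called, and Col3a1, Lum, Cdh5 and Cxcl12 were below background on all 4 arrays. The summed signal of the list was 0.359 and 0.586 on Rbpj-deficient arrays, against 0.495 and 0.628 on control arrays, so the groups overlapped in this sum. Of the 5 tested, 2 read above 0 and 3 below. Only Pecam1 did not overlap between genotypes (0.45 higher, SE 0.18), where 26.7% of all genes lay wholly higher. The part of such cells in the Ptgis difference was not tested. The named genes with a pattern most like that of Ptgis, by Euclidean distance between levels centred on each gene's mean over the 4 arrays, were Cdh17 (distance 0.25), Vgll1 (0.36), Wfdc9 (0.41), Clnk (0.41) and Zfp799 (0.46), of 12754 compared. Cdh17, Vgll1, Wfdc9 and Clnk were well above background on neither control array and passed the filter through the Rbpj-deficient arrays. With normexp the log2 differences of these 5 genes lay between 0.35 and 0.89, against 1.81 for Ptgis.

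**Figure D2:**
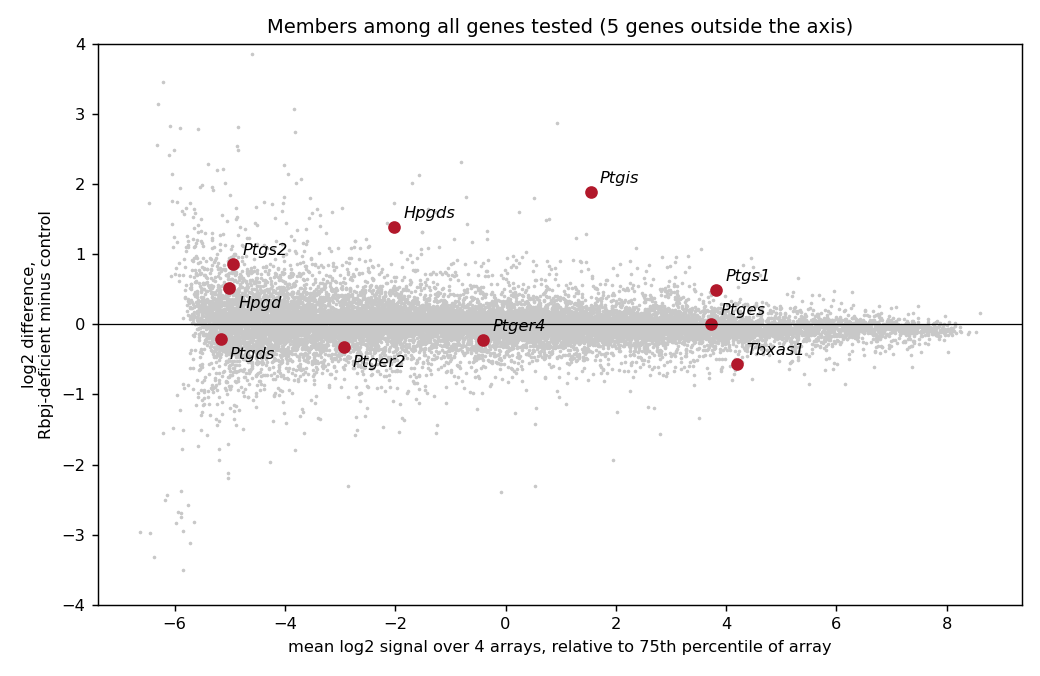
Log2 difference of Rbpj-deficient minus control against mean log2 level over the 4 arrays, with 1 grey point per gene tested and the 10 members in red; 5 genes lie outside the vertical axis. Ptgis (1.89) and Hpgds (1.39) stand above most genes, Tbxas1 (-0.56) at the lower edge, and the other 7 within the cloud or near its edge.

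Hpgds encodes the haematopoietic prostaglandin D2 synthase, a member of the glutathione transferase family known from mast cells and antigen-presenting cells. It read -1.32 and -1.33 on Rbpj-deficient arrays, against -2.67 and -2.75 on control arrays. Both pairs of replicates were tight and the groups did not overlap, with a log2 difference of 1.39 (SE 0.06) and array pairs from 1.34 to 1.43. Ptgds, which encodes the lipocalin-type enzyme for the same product, read -5.48 and -5.06 on Rbpj-deficient arrays, against -4.66 and -5.46 on control arrays. Its groups overlapped, and the log2 difference was -0.21 (SE 0.32), turning to 0.19 without control replicate 1.

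Mast cells and basophils also express Hpgds. Of 10 of their markers 9 were on the array and 6 were tested; all 6 read above 0 with a median of 0.63, and 2 rose past the limma threshold: Mcpt8, a basophil protease, by 1.13 (adjusted p = 0.0496) and Hdc, the enzyme that makes histamine, by 0.48 (adjusted p = 0.0475). Ms4a2 and Fcer1a, subunits of the high-affinity IgE receptor that defines both cell types, and Cma1 were below background on all 4 arrays. The summed signal of the list was 2.40 and 2.06 on Rbpj-deficient arrays, against 1.45 and 1.63 on control arrays. The calls of Mcpt8 and Hdc ended when any 1 of the 4 arrays was left out, when hardly any gene on the array was called. Their log2 changes were then 1.003 to 1.25 for Mcpt8 and 0.46 to 0.50 for Hdc. Mcpt8 also lost its call with quantile normalization (1.102) and with the mean of probes, and Hdc with median scaling (0.45).

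Markers of other cell types moved as well. Of 9 neutrophil markers tested 7 read above 0, the median was 0.63 and Mpo and Ngp were called higher; their summed signal was 54.0 and 47.1 on Rbpj-deficient arrays, against 31.9 and 36.7 on control arrays. Of 8 lymphocyte markers 4 were tested, 3 of them above 0 with a median of 0.72, and Klrb1c was called higher. Over all genes tested 8484 of 17974 read above 0 and 1.05% were called higher. With any 1 array left out, 0 to 1 genes were called over the whole array, and no marker named here was among them. The summed lymphocyte signal of 1.01 and 1.13 on Rbpj-deficient arrays overlapped the 1.07 and 0.849 on control arrays. Cd3e had the brightest probe of that list and weighed most in the sum, and its own arrays overlapped (-0.13). The part of any of these cells in the Hpgds difference was not tested.

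**Figure D3:**
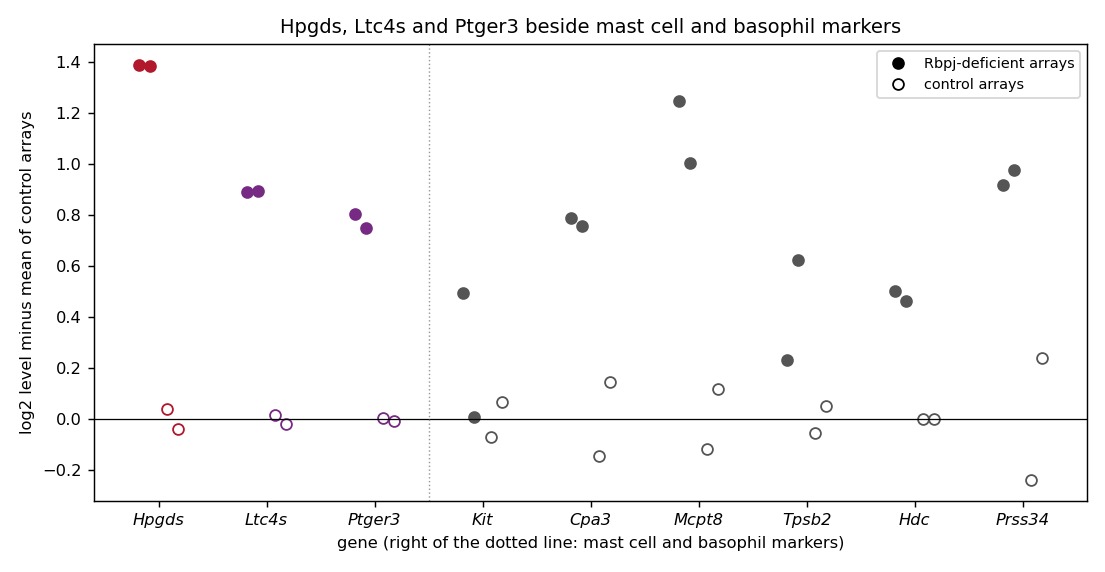
Log2 level minus the mean of the control arrays for Hpgds, Ltc4s, Ptger3 and the 6 tested mast cell and basophil markers; filled points are Rbpj-deficient arrays and open points control arrays. Hpgds stands near 1.39 on both Rbpj-deficient arrays, Mcpt8 averages 1.13 and Hdc 0.48, and the arrays of Kit overlap between genotypes.

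Tbxas1 encodes thromboxane A synthase, the cytochrome P450 that competes with the other terminal synthases for prostaglandin H2. It read 3.89 and 3.96 on Rbpj-deficient arrays, against 4.49 and 4.47 on control arrays. The groups did not overlap, with a log2 difference of -0.56 (SE 0.06) and array pairs from -0.61 to -0.51, rank 507 from the lowest. Macrophages also express Tbxas1, and the summed signal of 10 macrophage markers was 325 and 317 on Rbpj-deficient arrays, against 323 and 340 on control arrays. Of these markers 3 read above 0 and 7 below, with a median of -0.13, and 1 was called higher and 1 lower. The part of macrophages in the Tbxas1 difference was not tested.

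Ptges encodes the inducible microsomal prostaglandin E synthase. Its brighter probe read 3.72 and 3.74 on Rbpj-deficient arrays, against 3.68 and 3.77 on control arrays, so the groups overlapped and the log2 difference was 0.01 (SE 0.06), with array pairs from -0.05 to 0.06. Its dimmer probe read -5.10 and -4.96 on Rbpj-deficient arrays, against -4.98 and -5.42 on control arrays, and overlapped as well.

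The stretches before the start of Hpgds, Tbxas1 and Ptges are shown because these genes gave a higher, a lower and an overlapping reading with a tight spread between replicates, in cells with a reduced level of a DNA-binding protein's transcript. Promoters of 9 of the 10 members, all except Ptgis, were matched in RefSeq annotation of GRCm38.p6, and 250 bases before the start were searched on both strands for TGGGAA, the core of the sequence that RBPJ binds, and for GTGGGAA, which contains it. The sequences run 5′ to 3′ on the strand of the gene, with matches to the core in capitals, and lie at chr6:65144731-65144980 (minus strand), chr6:38918736-38918985 (plus strand) and chr2:30903298-30903547 (minus strand).
Hpgds: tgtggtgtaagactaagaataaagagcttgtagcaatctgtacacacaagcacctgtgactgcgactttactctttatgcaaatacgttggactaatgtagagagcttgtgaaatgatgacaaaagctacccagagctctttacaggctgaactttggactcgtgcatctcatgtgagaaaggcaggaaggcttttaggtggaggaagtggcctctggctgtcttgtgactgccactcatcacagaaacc
Tbxas1: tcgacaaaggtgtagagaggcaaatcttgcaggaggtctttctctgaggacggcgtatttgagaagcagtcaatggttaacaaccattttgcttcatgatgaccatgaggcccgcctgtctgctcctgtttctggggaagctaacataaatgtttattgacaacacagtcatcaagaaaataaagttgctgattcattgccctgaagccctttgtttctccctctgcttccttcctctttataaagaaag
Ptges: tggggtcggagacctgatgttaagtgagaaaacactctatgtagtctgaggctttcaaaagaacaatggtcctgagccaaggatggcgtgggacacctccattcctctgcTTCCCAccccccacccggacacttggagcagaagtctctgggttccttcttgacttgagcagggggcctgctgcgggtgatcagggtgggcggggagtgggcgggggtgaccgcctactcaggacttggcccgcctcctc
The core was present in 1 of these 9 promoters, that of Ptges, and in 21.6% of 32851 promoters in all; the longer form was present in the same one and in 5.42% of all. The match in Ptges was on the reverse strand and began 140 bases before the start. Among the other pathway genes that passed the test, the promoter of Ltc4s held 1 match to the core, on the reverse strand 79 bases before the start, and those of Ptger3 and Pla2g4d held none. A match describes these letters only and is no evidence of binding, and a missing match covers this window only.

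Ptger2 and Ptger4 encode receptors for prostaglandin E2 that raise cAMP. Ptger2 read -3.22 and -2.96 on Rbpj-deficient arrays, against -2.80 and -2.74 on control arrays, a log2 difference of -0.32 (SE 0.11). Ptger4 read -0.56 and -0.48 on Rbpj-deficient arrays, against -0.33 and -0.24 on control arrays, a log2 difference of -0.23 (SE 0.07). Neither overlapped, but the array pairs came as near to 0 as -0.16 for Ptger2 and -0.15 for Ptger4. Neither was called, which again is no test of members chosen on this contrast.

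Hpgd encodes the dehydrogenase that starts the inactivation of prostaglandins. It read -4.60 and -4.90 on Rbpj-deficient arrays, against -5.45 and -5.09 on control arrays, of which control replicate 1 was not well above background. The log2 difference was 0.52 (SE 0.17) with array pairs from 0.18 to 0.85, and it was 0.19 with normexp. A second probe was below background on all 4 arrays.

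**Figure D4:**
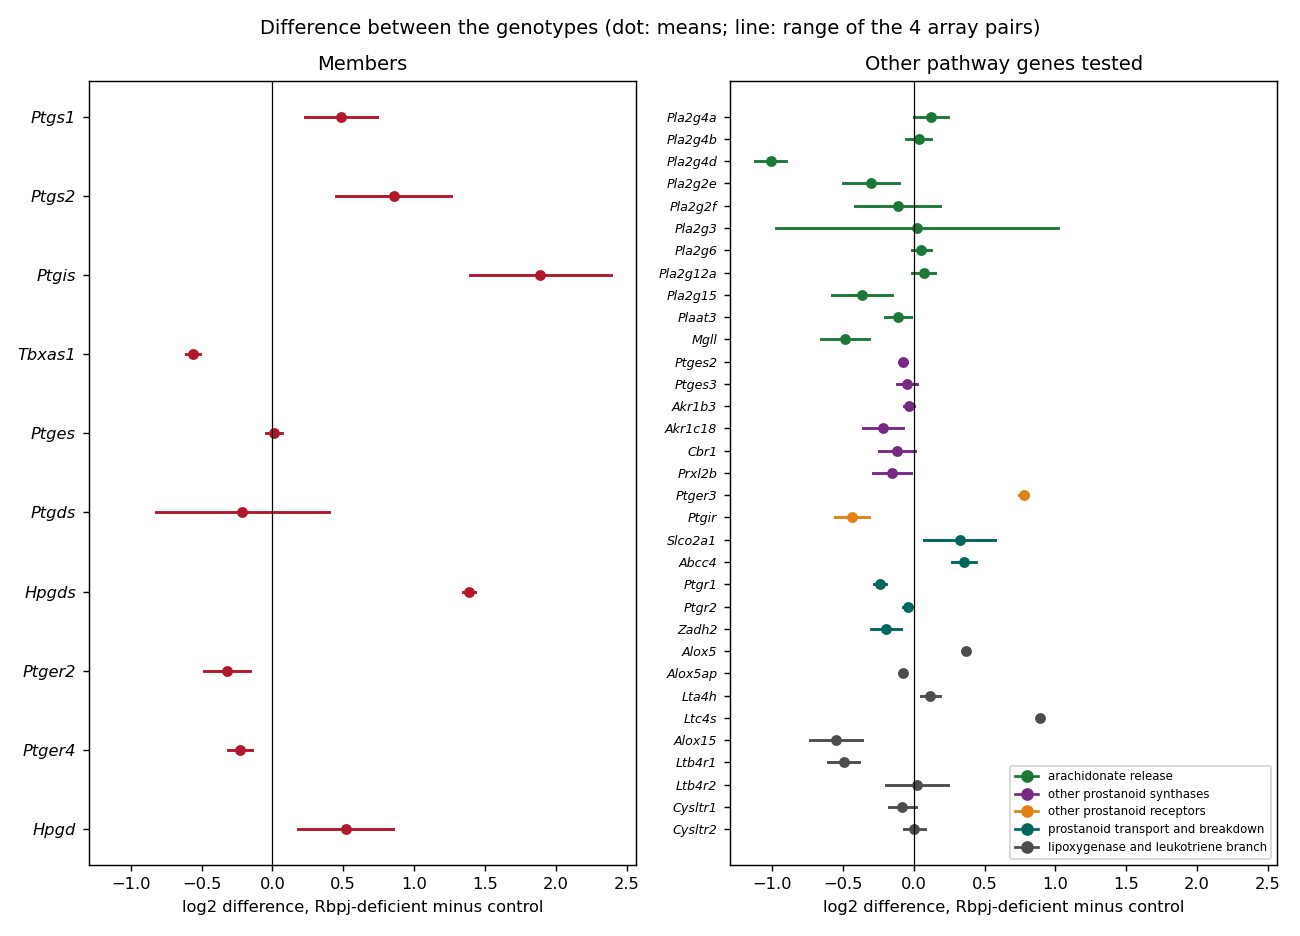
Log2 difference of Rbpj-deficient minus control for the 10 members (left) and the 33 other pathway genes tested (right, coloured by list); dots are differences of means and lines the range over the 4 array pairs. Ptgis (1.89) and Hpgds (1.39) lie farther right than any other pathway gene, the next being Ltc4s (0.89), and Pla2g4d (-1.01) lies farthest left.

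The rest of the pathway was read from a list of 45 genes, all on the array, of which 33 could be tested. Of these 2 rose, 1 fell and 30 did not pass, where 1.05% of all genes were called higher and 0.851% lower. The median log2 difference of the 33 was -0.08. Of the 12 that were not tested, 11 were below background on every probe and array, among them Ptgdr and Ptgdr2, the receptors of prostaglandin D2, and Tbxa2r, the receptor of thromboxane. The prostacyclin receptor gene Ptgir, singled out here after its value was seen because it answers to the product of Ptgis, read 2.53 and 2.42 in Rbpj-deficient cells, against 2.98 and 2.84 in control cells (-0.43, SE 0.08, limma adjusted p = 0.0814). Ptgir did not pass the test. Among the alternatives it passed only with normexp and with another prior on the variance (trended and robust). Its log2 difference lay between -0.50 and -0.36 over 13 alternatives.

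Ltc4s, the synthase that joins glutathione to leukotriene A4, read 3.51 and 3.52 on Rbpj-deficient arrays, against 2.64 and 2.61 on control arrays. Ltc4s rose 1.85-fold, 0.89 in log2 units (SE 0.05, limma adjusted p = 0.0323), and was the only one of 9 tested genes of the lipoxygenase and leukotriene branch to pass. Ptger3, which encodes a prostaglandin E2 receptor that lowers cAMP, read -1.20 and -1.25 on Rbpj-deficient arrays, against -1.997 and -2.01 on control arrays. It rose by 0.78, or 1.71-fold (SE 0.06, limma adjusted p = 0.0333), with a difference of 0.74 on a dimmer, untested probe, beside lower readings of Ptger2 and Ptger4. Mast cells and basophils express both Ltc4s and Ptger3, and the marker values given beside Hpgds, those of neutrophils and lymphocytes included, stand beside these genes too. Their part was not tested here either.

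Pla2g4d, a cytosolic phospholipase A2, read -4.51 and -4.73 on Rbpj-deficient arrays, against -3.61 on both control arrays. It fell by 1.01 (SE 0.09, limma adjusted p = 0.0381) and was the only one of 11 tested genes of arachidonate release to pass. With normexp it fell by 0.43 and was still called, along with Mgll of the same list. None of 6 other synthases passed. On the brightest probes all 6 read below 0, as did 9490 of 17974 genes tested. Of the 6, 3 overlapped between genotypes and 3 lay wholly lower, where 32.3% of all genes lay wholly lower. Farthest from 0 lay Akr1c18 (-0.22, limma adjusted p = 0.249) and Prxl2b (-0.15, limma adjusted p = 0.367). Dimmer probes of Ptges3 read 0.08, 0.02 and 0.02, against -0.045 on its brightest. None of 5 genes of transport and breakdown passed; the exporter Abcc4 stood at 0.35 (adjusted p = 0.0985) and the uptake carrier Slco2a1 at 0.32 (adjusted p = 0.351). Slco2a1 was well above background on 1 of 2 control arrays, and it stood at 0.57 without Rbpj-deficient replicate 1, at 0.08 without Rbpj-deficient replicate 2 and at 0.04 with normexp. The calls of Ltc4s, Ptger3 and Pla2g4d ended when any 1 array was left out, whether Rbpj-deficient replicate 1 or 2 or control replicate 1 or 2. Hardly any gene on the array was called in those fits. The log2 changes then lay between 0.87 and 0.91 for Ltc4s, 0.75 and 0.80 for Ptger3, and -1.12 and -0.90 for Pla2g4d.

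**Figure D5:**
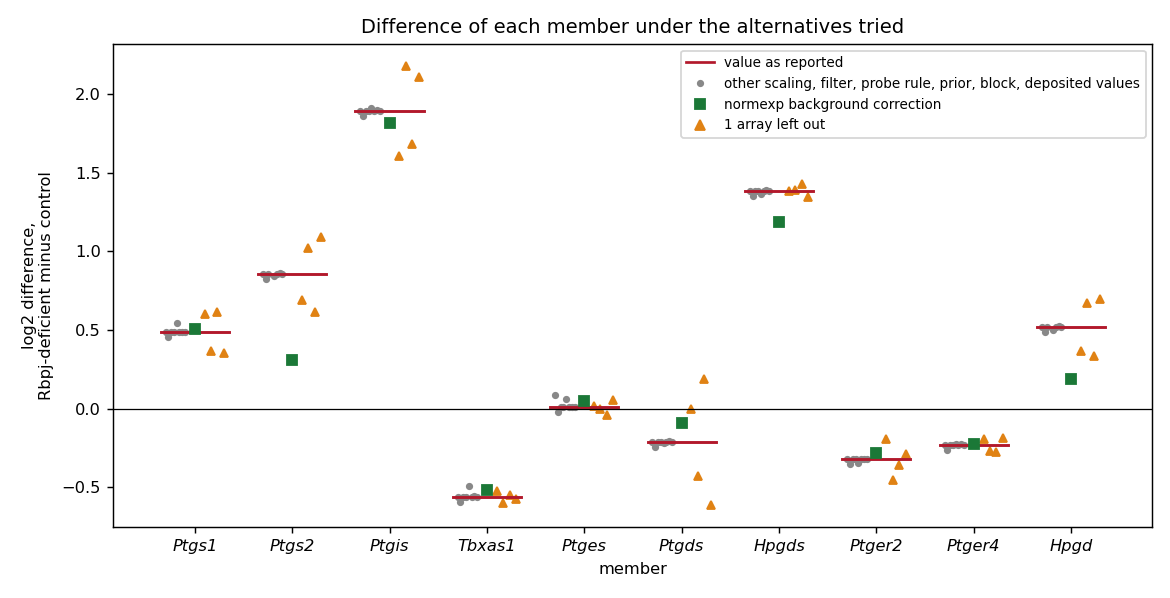
Log2 difference of Rbpj-deficient minus control for each member as reported (red bar), with other scaling, filter, probe rule, variance prior, block or deposited values (grey), with normexp (green) and with 1 array left out (orange). Ptgis ranges from 1.61 to 2.18 and Hpgds from 1.19 to 1.43, Ptgs2 and Hpgd sit lowest with normexp, and Ptgds crosses 0 when control replicate 1 is left out.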

How the data were processed

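RNA from each sample (150 ng, Cy3-labelled per the labels) was hybridised to a one-colour Agilent array of its own. The authors read spot intensity, per the file headers, with Agilent Feature Extraction 10.7.1.1, with background subtracted and no scaling between arrays; the flags for outlying spots and spots well above background come from it. The authors' deposited log2 table, whose making is not given in the sources used here, served as an alternative. All 4 arrays lay on 1 slide, so the slide was no batch.

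Intensity was taken to log2 and reduced by each array's 75th percentile. Outlier spots (127 to 176 an array) were left out and spots of a probe averaged. A probe was well above background on an array when at least 0.5 of its spots were. A probe was tested if both arrays of a genotype, or of both, had it well above background, and the brightest stood for its gene. Of 39429 probes 26055 received 1 symbol through the accession in RefSeq annotation, 0 several and 13374 none. Targets without a symbol were tested under the array's own target name, again on the brightest probe. Genotypes were compared with limma 3.58.1 in R 4.3.3 (lmFit, eBayes). P-values were adjusted after Benjamini and Hochberg over 17974 genes, of which 342 were called. The procedure was tested on simulated data. SE is that of the moderated fit, SD is between arrays, and precision is limited by how few arrays there are. Python 3.11.15 with pandas 2.3.3 was used for tables.

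The members and lists were chosen with earlier results of these data known. Named were all members, every other pathway gene past the threshold or else up to 2 per list farthest from 0, Rbpj, Itgax and the 5 genes nearest to Ptgis. The marker genes named and Ptgir were added after their values were seen. A marker result is not reported here. Alternatives were the filter, the scaling, the background correction, the deposited values, the mean of probes, the variance prior, a replicate block and leaving out each array. The arrays hold no column of mean signal, so normexp (offset 50), on the median signal, was added after seeing the data. Its offset shrinks differences of dim probes most, so the smaller values of Ptgs2, Hpgd, Pla2g4d and Slco2a1 with normexp may come from their dimness.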

Additional observations from a re-analysis of the deposited data

How the results depend on the processing

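Over 13 alternatives the log2 difference of Ptgis stayed between 1.61 and 2.18 and within 1 SD, pooled over the genotypes, of the reported value. The filter, the mean of probes, the variance prior and the block left its value unchanged. Leaving out 1 of 2 arrays of a genotype cannot move it beyond 1 SD. Only the other scalings, normexp and the deposited values could have done so, and these gave 1.81 to 1.91. Beyond 1 SD lay Ptges with quantile normalization (0.06) and with the mean of probes (0.09), Tbxas1 with quantile normalization (-0.49) and normexp (-0.52), and Hpgds (1.19), Ptgs2 (0.31) and Hpgd (0.19) with normexp. Ptges took the other sign in 3 alternatives and Ptgds in 1; Ptgs2 and Hpgd had no value where all 4 arrays had to be well above background.

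The counts of limma calls over all genes, other pathway genes and members were 342, 3 and 2. Without the filter on dim probes, when 32496 genes were tested, no gene was called, against 3658, 10 and 5 at an unadjusted p under 0.05: the counts were 0, 0 and 0. With normexp 888 genes and 7 other pathway genes were called, and with a trended and robust prior 1553 (690 higher and 863 lower) and 9. With quantile normalization 1 member was called (Hpgds), and with 4 alternatives 3 were, Ptgis being the third. Nothing is read from the calls of members, which were chosen on this contrast. Leaving out each array gave 0 to 1 calls over all genes (2963 to 3512 at an unadjusted p under 0.05), 0 in the pathway (11 to 12) and 0 of the members (4 to 6); a lone array was then assumed to vary like the other genotype.

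With the replicate number as a block, 0, 0 and 0 were called by limma, against 3674, 11 and 7 at an unadjusted p under 0.05. The arrays share only a number: deviations of same-numbered arrays correlated at -0.0472 over 17974 genes, so a pairing was not taken and a call lost under the block is not a weaker effect. The cause of the other changes was not tested. Signal near background limits Ptgs2, Ptgds and Hpgd.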
